A study of Mus musculus with 10 samples.

Results

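The 10 genes described here encode enzymes that build purine nucleotides and supply the one-carbon units this synthesis consumes: Ppat, Gart, Pfas, Paics, Adsl, Atic, Impdh2, Mthfd1, Mthfd2 and Shmt2. They were taken by gene symbol from the deposited per-library expression tables, in which all 10 of 10 were found among 22923 gene symbols. Levels are FPKM, a scale on which the fragments of a gene are divided by the length of its transcript and by the size of the library. RNA was measured in 5 sorted populations of C57bl/6 mice aged 4 weeks: large pre-B cells (the dividing stage), small pre-B cells (the resting stage) and mature granulocytes from bone marrow, and cycling and quiescent CD4+CD8+ thymocytes from thymus. The control libraries came from Dyrk1a flox/flox, Mx1-Cre- mice and the conditional knockout (CKO) libraries from Dyrk1a -/-, Mx1-Cre+ mice, so that both genotypes carried the targeted Dyrk1a alleles and the controls lacked the Cre. Mx1-Cre is driven by an interferon-responsive promoter and is not restricted to lymphocytes. Each population and genotype is 1 library from 2 pooled mice, so the 10 libraries hold no replicate of any population within a genotype. Tests of state within a lineage, and of population, therefore took both genotypes as the paired values. Tests of genotype took the populations as pairs, and the test of state by genotype took both lineages. DYRK1A is a protein kinase with roles in cell cycle exit, and the populations pair a dividing with a resting stage of the same lineage.

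Purine rings are assembled stepwise on a ribose phosphate. PPAT commits the pathway, GART, PFAS, PAICS, ADSL and ATIC carry it to inosine monophosphate (IMP), and IMPDH2 turns IMP towards guanine nucleotides. A pair of the ring's carbons arrives on a folate carrier that MTHFD1 loads in the cytosol, with formate made in mitochondria by SHMT2 and MTHFD2 from serine. Lymphocytes that divide depend on this route for nucleic acid synthesis, and drugs against IMPDH are used to restrain them.

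Promoter sequence is shown for the 5 members whose start region holds a match to the MYC or the E2F word given below. The 10 members shifted together between dividing and resting cells, among them Gart, Adsl, Mthfd2 and Shmt2, whose windows hold neither match. Whether either word had a part in the shift was not tested. The RefSeq table (build GRCm38.p6), which covers 250 bases before to 50 after each transcript start, held 9 of the 10 members. The word CACGTG, the E-box bound by MYC and its partners, was searched on both strands, where it reads the same, and was found once each in Paics, Atic and Impdh2. It occurs in 7.15% of all 32851 windows of the table. TTCCCGCC, a form of the E2F word read on both strands, was found in Ppat at 2 places and in Mthfd1 at 1 place, against 2.192% of all windows. Capitals mark the matched word, GGCGGGAA being the E2F word on the other strand, and each sequence is written 5′ to 3′ on the strand of its gene.
Paics: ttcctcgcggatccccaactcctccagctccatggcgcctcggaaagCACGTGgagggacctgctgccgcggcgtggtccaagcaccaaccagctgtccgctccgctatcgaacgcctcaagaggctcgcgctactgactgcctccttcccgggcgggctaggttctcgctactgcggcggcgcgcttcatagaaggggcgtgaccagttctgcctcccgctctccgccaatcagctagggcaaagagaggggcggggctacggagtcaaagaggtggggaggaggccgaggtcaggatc
Atic: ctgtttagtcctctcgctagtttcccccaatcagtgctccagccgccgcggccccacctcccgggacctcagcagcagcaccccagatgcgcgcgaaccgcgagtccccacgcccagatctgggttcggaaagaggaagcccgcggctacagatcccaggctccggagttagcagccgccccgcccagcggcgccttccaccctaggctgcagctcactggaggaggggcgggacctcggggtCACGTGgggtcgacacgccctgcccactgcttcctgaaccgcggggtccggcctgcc
Impdh2: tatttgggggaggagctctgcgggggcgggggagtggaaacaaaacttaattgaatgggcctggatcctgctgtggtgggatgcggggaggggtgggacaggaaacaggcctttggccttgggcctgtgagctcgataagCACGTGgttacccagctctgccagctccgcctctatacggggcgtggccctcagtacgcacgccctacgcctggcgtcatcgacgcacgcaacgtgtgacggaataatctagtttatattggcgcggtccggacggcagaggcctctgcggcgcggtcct
Ppat: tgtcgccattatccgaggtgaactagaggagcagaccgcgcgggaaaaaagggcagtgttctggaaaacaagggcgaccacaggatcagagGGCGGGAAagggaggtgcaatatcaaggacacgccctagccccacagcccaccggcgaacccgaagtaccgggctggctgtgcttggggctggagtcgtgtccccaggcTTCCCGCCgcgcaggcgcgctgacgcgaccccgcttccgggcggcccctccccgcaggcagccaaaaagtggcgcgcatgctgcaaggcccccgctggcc
Mthfd1: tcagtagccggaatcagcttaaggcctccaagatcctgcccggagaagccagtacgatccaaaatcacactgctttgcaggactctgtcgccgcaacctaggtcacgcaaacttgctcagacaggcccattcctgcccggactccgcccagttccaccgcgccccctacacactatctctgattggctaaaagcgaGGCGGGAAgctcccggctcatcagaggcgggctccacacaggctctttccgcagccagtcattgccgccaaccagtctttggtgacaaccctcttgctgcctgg
These windows lie at chr5:76951052-76951351 on the plus strand (Paics), chr1:71556906-71557205 on the plus strand (Atic), chr9:108560186-108560485 on the plus strand (Impdh2), chr5:76951529-76951828 on the minus strand (Ppat) and chr12:76254982-76255281 on the plus strand (Mthfd1). Counted from the table's transcript start, the E-box begins at -203 in Paics, -7 in Atic and -110 in Impdh2. The E2F word begins at -159 and -50 in Ppat and at -54 in Mthfd1. Another form of the E2F word, TTTGGCGC, and the ATF4 word TGATGNAA, each searched on both strands, matched 0 of the 9 member windows, against 0.514% and 3.969% of all windows. CCAAT was in 6 of the 9 and in 37.408% of all windows, CCGGAAG, the ETS word, in 3 of the 9 and in 8.858%, and the NRF1 palindrome in Shmt2 alone and in 0.971%. None of the words found in a window overlap one another. A matched word describes these letters and is not evidence that a factor binds there.

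Each lineage's own markers were high in its labelled libraries, but markers of other bone marrow cells were also present in pre-B cells, and the granulocytes had gaps. The summed FPKM of 8 thymocyte markers, including Cd4, Cd8a and Rag1, lay between 2007 and 3516 in the thymocyte libraries, and in pre-B cells between 88.6 and 546, most of it Rag1, the recombinase gene that both lineages use. The 7 pre-B markers, including Vpreb1, Igll1 and Cd79a, summed to between 1701 and 3302 FPKM in the pre-B libraries and to at most 8.18 in thymocytes. All 5 early granule genes (Mpo, Elane, Prtn3, Ctsg and Ms4a3) were found in control and CKO-labelled large pre-B cells, summing to 922 and 385 FPKM, against 1518 and 630.0 in granulocytes, 19.9 and 11.2 in small pre-B cells and at most 0.19 in thymocytes. The 8 erythroid markers summed to 648 and 397 FPKM in large pre-B cells, 58.3 and 71.5 in small pre-B cells, 139 and 496 in granulocytes and at most 19.9 in thymocytes. The 6 monocyte markers summed to between 47.3 and 120 FPKM in pre-B cells, 357 and 197 in granulocytes and at most 5.63 in thymocytes. In control and CKO-labelled small pre-B cells most of the sum was Ly86 (41.8 and 37.6 FPKM) and Mpeg1 (4.27 and 77.6). Among the granulocyte markers, Camp reached 22665 FPKM in control granulocytes and 18472 FPKM in CKO-labelled ones, but S100a9 is listed at 0 in both, and S100a8 and Ngp are listed at 0 in the control only. The FPKM of all genes summed to between 360394 and 431868 in the lymphoid libraries and to 830006 and 1074258 in the granulocyte libraries. Dyrk1a itself was higher in the CKO-labelled than in the control library of every population, with 31.2 to 37.4 FPKM in controls and 34.4 to 44.7 FPKM in CKO-labelled libraries. The difference over the 5 populations was 0.24 ± 0.07 (SE) on the log2(FPKM + 1) scale and did not pass (limma adjusted p = 0.234). A single value per gene does not show the floxed exons apart and so does not check the genotype, and those libraries are called CKO-labelled below. The cause of the higher Dyrk1a values was not tested.

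In dividing lymphocytes Impdh2 or Paics was the highest of the 10 members per unit length and Pfas the lowest. Impdh2 made up 25.1% to 28.1% of the members' summed FPKM in the large pre-B and cycling thymocyte libraries. That sum was 552 and 636 FPKM in control and CKO-labelled large pre-B cells, 417 and 378 in cycling thymocytes, 174 and 271 in small pre-B cells and 187 and 217 in quiescent thymocytes. All dividing libraries thus lay above all resting ones in the summed level.

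**Figure D1:**
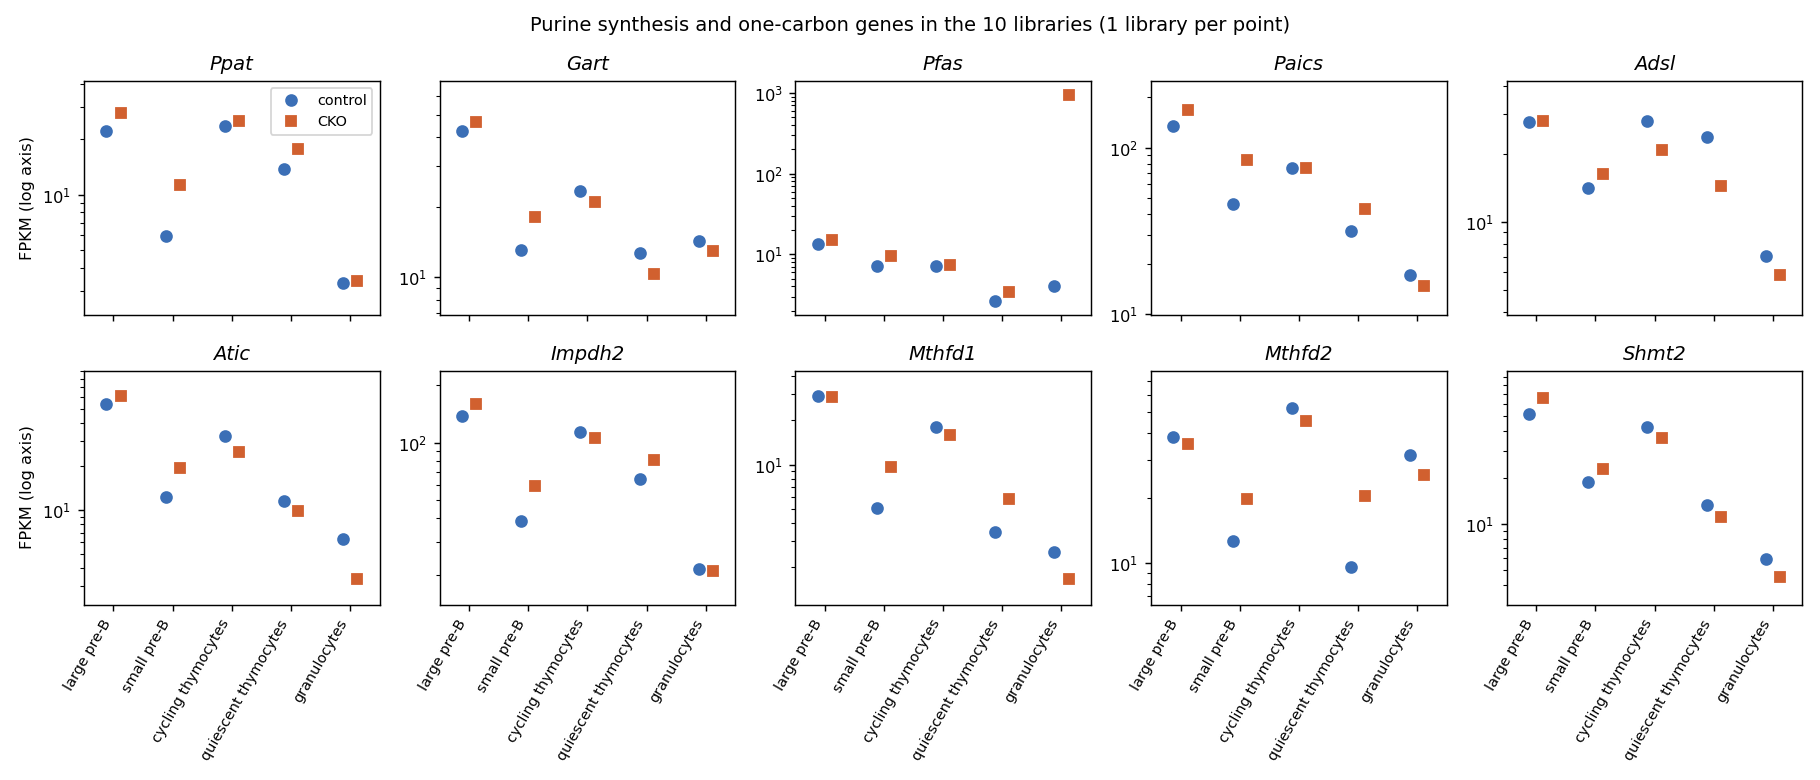
FPKM of each member (log axis) in the 5 populations, 1 point per library, with circles for control and squares for CKO-labelled mice. Large pre-B cells or cycling thymocytes hold the highest points of each gene except Pfas, whose CKO-labelled granulocyte library stands at 934 FPKM.

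Within each lineage and genotype, the FPKM of every member was lower in resting than in dividing lymphocytes. In quiescent thymocytes 9 of the 10 members were called lower than in cycling thymocytes, Adsl being the exception, where 19.7% of 11126 tested genes were called lower. In small pre-B cells all 10 members fell against large pre-B cells, where 21.8% of tested genes were called lower. The early granule and erythroid markers, higher in both large than in both small pre-B libraries, moved with the pre-B contrast. The 8 granulocyte markers went the other way. They summed to 212 and 165 FPKM in control and CKO-labelled large pre-B cells and to 606 and 456 in small ones. The part of these cell types in the members' fall was not tested. In thymocytes the early granule markers were near 0 in both states. The median difference over the members was -1.04 on the log2(FPKM + 1) scale in thymocytes, against 0.06 over all tested genes, and -1.46 in pre-B cells, against 0.04. These calls come from limma with Benjamini-Hochberg adjustment over all tested genes at 0.05, in 1 fit of the 8 lymphoid libraries with a term for each lineage and genotype and 2 residual degrees of freedom. In these bulk libraries fewer cells of a type and less RNA per cell cannot be told apart. Without the control pair of libraries of a lineage, 0 members passed in that lineage, in a fit with 1 residual degree of freedom that called 1 gene lower in thymocytes and 3 in pre-B cells; all members kept a negative difference.

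Ppat encodes the amidotransferase that commits ribose phosphate to the purine ring. Its FPKM was 23.5 in control and 25.0 in CKO-labelled cycling thymocytes and 13.7 and 17.8 in quiescent thymocytes, and it was 22.2 and 27.7 in large and 5.92 and 11.2 in small pre-B cells. The groups did not overlap in either lineage, and the gap was wider in pre-B cells. Ppat fell by 0.60 ± 0.16 (SE) on the log2 scale in thymocytes (limma adjusted p = 0.0307) and fell by 1.49 ± 0.16 in pre-B cells (limma adjusted p = 0.00412). Its thymocyte call is lost without the filter on low values (limma adjusted p = 0.0795), with a lineage term alone (0.142) and without either thymocyte pair (0.247 and 0.0751).

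Gart encodes the enzyme that adds glycine and a formyl group and closes a ring. Control and CKO-labelled cycling thymocytes stood at 23.5 and 21.1 FPKM, quiescent thymocytes at 12.7 and 10.3, large pre-B cells at 42.5 and 46.5 and small pre-B cells at 13.1 and 18.3. The resting libraries lay below the dividing ones in both lineages. Gart fell by 0.90 ± 0.12 on the log2 scale in thymocytes (limma adjusted p = 0.00741) and fell by 1.46 ± 0.12 in pre-B cells (limma adjusted p = 0.00256). Gart starts 554 bases from Son, a splicing factor gene read in the opposite direction, in the GENCODE annotation. Son moved the other way, rising by 0.66 ± 0.12 on the log2 scale in quiescent thymocytes (limma adjusted p = 0.0112) and by 0.45 ± 0.12 in small pre-B cells (limma adjusted p = 0.0303).

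Pfas, the gene of the glutamine-using step that follows, was the lowest member per unit length in 7 of the 8 lymphoid libraries. In control and CKO-labelled thymocytes it measured 7.16 and 7.40 FPKM when cycling and 2.65 and 3.42 when quiescent, and in pre-B cells 13.5 and 15.1 when large and 7.16 and 9.63 when small. Quiescent thymocytes were below cycling ones and small below large pre-B cells in both genotypes. Pfas fell by 1.04 ± 0.13 in thymocytes (limma adjusted p = 0.00688) and fell by 0.71 ± 0.13 in pre-B cells (limma adjusted p = 0.0113), on the log2 scale. The pre-B call is lost without the CKO-labelled pre-B pair (limma adjusted p = 0.0652).

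Paics encodes the bifunctional enzyme of the carboxylation and aspartate steps. Its FPKM in control and CKO-labelled thymocytes was 75.7 and 75.5 when cycling and 31.4 and 42.6 when quiescent. Large pre-B cells reached 135 and 167 FPKM, against 45.8 and 84.6 in small ones. The states did not overlap within a lineage, but CKO-labelled small pre-B cells were above both cycling thymocyte libraries. Paics fell by 1.03 ± 0.18 on the log2 scale in thymocytes (limma adjusted p = 0.0102) and fell by 1.26 ± 0.18 in pre-B cells (limma adjusted p = 0.00603).

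Adsl, whose enzyme releases fumarate both here and on the branch to adenine nucleotides, had the smallest fall of the 10 over both lineages (difference -0.60 ± 0.09 on the log2 scale, limma adjusted p = 0.00324). Cycling thymocytes held 28.0 FPKM in the control and 20.7 in the CKO-labelled library, against 23.7 and 14.4 in quiescent thymocytes. Those states overlapped, since the control quiescent library was above the CKO-labelled cycling one. Large pre-B cells had 27.7 and 28.0 FPKM, above the 14.1 and 16.4 of the small ones. The log2 difference was -0.37 ± 0.12 in thymocytes, which did not pass (limma adjusted p = 0.0565), and Adsl fell by 0.83 ± 0.12 in pre-B cells (limma adjusted p = 0.00633). Rescaling the libraries by median ratios brings the thymocyte difference past the threshold (limma adjusted p = 0.0457), and leaving out the CKO-labelled pre-B pair loses the pre-B call (0.0534).

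Atic encodes the enzyme that adds the last formyl group and closes the ring to IMP. Its FPKM was 32.5 and 25.0 in control and CKO-labelled cycling thymocytes, 11.5 and 9.85 in quiescent thymocytes, 54.0 and 60.9 in large pre-B cells and 12.3 and 19.3 in small pre-B cells. Every resting library was below every dividing library, across lineages too. Atic fell by 1.34 ± 0.14 on the log2 scale in thymocytes (limma adjusted p = 0.00638) and fell by 1.83 ± 0.14 in pre-B cells (limma adjusted p = 0.00245).

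Impdh2, the isoform usually raised in dividing cells, measured 114 and 106 FPKM in control and CKO-labelled cycling thymocytes and 64.6 and 81.0 in quiescent ones. In pre-B cells it measured 139 and 159.9 FPKM when large and 38.7 and 59.0 when small. The states were apart in both lineages, with the wider gap in pre-B cells. On the log2 scale Impdh2 fell by 0.60 ± 0.15 in thymocytes (limma adjusted p = 0.027) and fell by 1.62 ± 0.15 in pre-B cells (limma adjusted p = 0.00318). Its thymocyte call is lost under 5 of the alternatives, at limma adjusted p between 0.0514 and 0.23. A processed pseudogene, Impdh2-ps, has a transcript 99.741% identical over 1545 bases of the Impdh2 transcript, so its reads could be counted with Impdh2.

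Mthfd1 encodes the cytosolic enzyme that makes 10-formyl-tetrahydrofolate, and showed the widest fall in pre-B cells. Control and CKO-labelled cycling thymocytes stood at 17.9 and 15.8 FPKM and quiescent thymocytes at 3.50 and 5.79. Large pre-B cells stood at 29.0 and 28.5 FPKM and small ones at 5.06 and 9.68. Both resting stages were well below both dividing ones. It fell by 1.68 ± 0.27 on the log2 scale in thymocytes (limma adjusted p = 0.00869) and fell by 1.89 ± 0.27 in pre-B cells (limma adjusted p = 0.00598).

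Mthfd2 encodes a mitochondrial folate enzyme that is high in embryonic and dividing cells. Its FPKM was 52.0 and 45.5 in control and CKO-labelled cycling thymocytes and 9.59 and 20.5 in quiescent ones, the widest fall of the members in thymocytes. In pre-B cells it was 38.2 and 35.6 FPKM when large and 12.6 and 19.7 when small. The states did not overlap. Mthfd2 fell by 1.72 ± 0.32 in thymocytes (limma adjusted p = 0.0116) and fell by 1.17 ± 0.32 in pre-B cells (limma adjusted p = 0.0307), on the log2 scale, and its SE was the largest of the 10. Both calls are lost without the filter on low values (limma adjusted p = 0.0508 and 0.0963), and the pre-B call without the CKO-labelled pre-B pair (0.0974).

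Shmt2, whose mitochondrial enzyme takes the one-carbon unit from serine, had the smallest SE. It measured 42.5 and 36.1 FPKM in control and CKO-labelled cycling thymocytes, 13.2 and 11.1 in quiescent ones, 51.6 and 66.1 in large pre-B cells and 18.8 and 22.9 in small pre-B cells. All 4 dividing libraries lay above all 4 resting ones. Shmt2 fell by 1.61 ± 0.10 on the log2 scale in thymocytes (limma adjusted p = 0.00617) and fell by 1.45 ± 0.10 in pre-B cells (limma adjusted p = 0.00228).

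**Figure D2:**
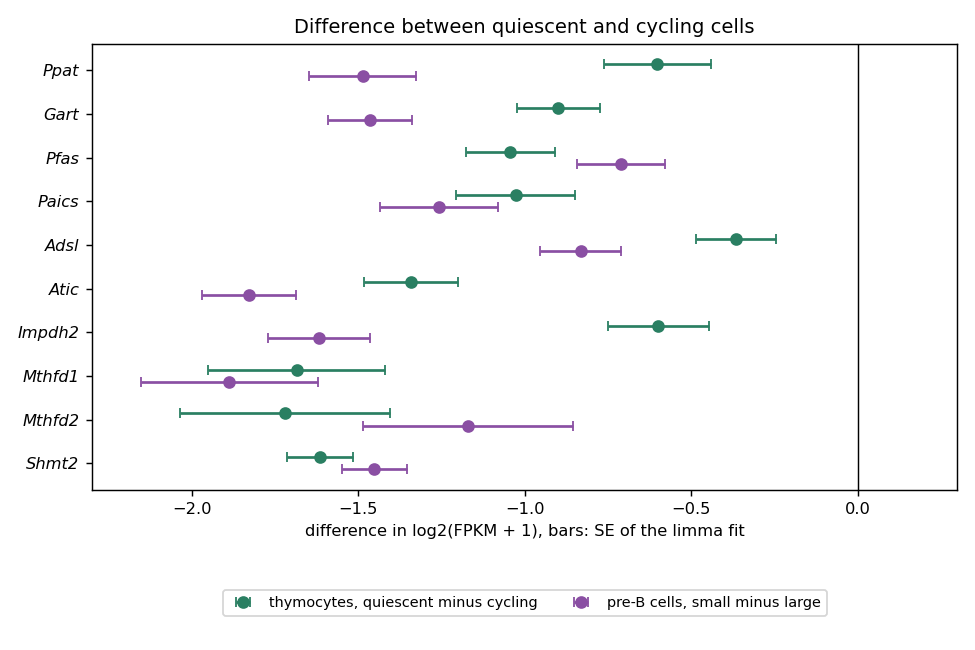
Difference in log2(FPKM + 1) between resting and dividing cells for each member, with green points for thymocytes, purple points for pre-B cells and bars for the SE of the limma fit. All 20 points lie left of 0, from -1.89 for Mthfd1 in pre-B cells to -0.37 for Adsl in thymocytes.

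Whether the lineages differed was tested as the difference between the pre-B and the thymocyte fall. By limma 0 of the 10 members passed, where 6.84% of all tested genes were called in either direction. An unadjusted p under 0.05 was found for 4 of the 10 members and for 28.2% of all tested genes. The member with the lowest p was Impdh2, with a larger fall in pre-B cells (difference -1.02 ± 0.22 on the log2 scale, limma adjusted p = 0.0556). Next came Ppat, with a difference of -0.89 ± 0.23 (limma adjusted p = 0.0789). The other 8 members had limma adjusted p up to 0.751. With a pseudocount of 5 the Impdh2 difference of -0.97 passed (limma adjusted p = 0.0487).

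Proliferation genes moved with the same contrast. All 15 genes of a proliferation list, from Mki67 to the replicative helicase genes Mcm2 to Mcm7, were called lower in quiescent thymocytes, as were 19.7% of tested genes. In small pre-B cells all 15 had a negative difference and 7 were called lower, as were 21.8% of tested genes. The median differences were -2.86 and -1.36 on the log2 scale. Mki67 stood at 139 and 198 FPKM in control and CKO-labelled cycling thymocytes, 1.70 and 48.3 in quiescent thymocytes, 158 and 187 in large pre-B cells and 35.0 and 75.5 in small pre-B cells. Pcna, the sliding clamp of DNA polymerase, Rrm2, a ribonucleotide reductase subunit, and Top2a, a topoisomerase, fell by 1.40, 3.37 and 4.19 on the log2 scale in quiescent thymocytes (limma adjusted p = 0.0158, 0.0173 and 0.0127). In small pre-B cells Pcna fell by 0.98 (limma adjusted p = 0.0418), while Rrm2 at -1.36 and Top2a at -1.99 were not called (0.176 and 0.0912). The part of cycling cells in the members' fall was not tested.

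Other genes of the same metabolism moved less uniformly, over the mean of both lineages. The members fell in 10 of 10 there, against 26.9% of all genes called lower and 34.6% called higher. In the list counts that follow, fell and rose mean called lower and called higher. Of 8 further genes of purine synthesis, 4 fell and 0 rose. Among them the ribose phosphate synthetase genes Prps1 and Prps2 fell by 0.76 and 0.49 on the log2 scale (limma adjusted p = 0.00195 and 0.00762), while Adss, which starts the adenine branch, was at -0.18 and not called (limma adjusted p = 0.0696). Prps2 was called in thymocytes alone (-0.83, against -0.16 in pre-B cells). Impdh1, the other IMP dehydrogenase gene, was not called over both lineages (-0.41, limma adjusted p = 0.061). It fell by 0.92 in pre-B cells (limma adjusted p = 0.0196) and was at 0.11 in thymocytes (0.712). Adssl1, a relative of Adss, fell by 0.80 over both, made up of a called fall of 1.46 in thymocytes and an uncalled -0.15 in pre-B cells. The difference between lineages did not pass for Prps2, Impdh1 or Adssl1 (limma adjusted p = 0.0939, 0.101 and 0.0594). Of 16 tested genes of folate and one-carbon metabolism 8 fell and 1 rose. Shmt1, the cytosolic relative of Shmt2, fell by 1.99, Mthfd1l, which releases mitochondrial formate, fell by 1.75 and Tyms, thymidylate synthase, fell by 1.83 on the log2 scale. Dld, a subunit shared with the glycine cleavage system, was not called over both lineages (-0.17) but fell by 0.32 in pre-B cells (limma adjusted p = 0.0372).

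Of 6 genes of serine and methionine metabolism 4 fell and 1 rose. The serine synthesis genes Phgdh and Psat1 fell by 1.06 and 1.65 on the log2 scale, and Ahcy, which hydrolyses S-adenosylhomocysteine, by 1.49. Mat2a, which makes S-adenosylmethionine, was not called over both lineages, since it rose by 0.59 in thymocytes (limma adjusted p = 0.00929) and fell by 0.49 in pre-B cells (limma adjusted p = 0.0135), a difference between lineages that passed (0.026). Of 13 tested genes of purine salvage and breakdown 9 fell and 2 rose. Hprt, the main salvage enzyme of hypoxanthine and guanine, fell by 1.31, Adk, adenosine kinase, by 2.20 and Pnp by 0.88 on the log2 scale. For Pnp the lineages differed (limma adjusted p = 0.0273), with a fall of 1.53 in pre-B cells and an uncalled -0.23 in thymocytes. Dck, which salvages deoxynucleosides, stayed at 142 to 196 FPKM in the lymphoid libraries and was not called. Pyrimidine synthesis went the way of the members, with 7 of 8 genes lower and 1 higher, and Cad, its first enzyme, fell by 1.70 on the log2 scale. The nucleotide kinase genes Nme1, Nme2 and Cmpk1 fell by 1.49, 1.29 and 0.44, Cmpk1 being called in thymocytes and not in pre-B cells (-0.67 and -0.21). Of 11 tested genes of the amino acid response 5 fell and 3 rose, and Atf4, its transcription factor, was not called. Asns, asparagine synthetase, and the amino acid transporter genes Slc7a5 and Slc3a2 fell by 0.65, 0.93 and 0.28 on the log2 scale over both lineages. They fell in pre-B cells, by 1.21, 1.84 and 0.68, and none was called in thymocytes (-0.08, -0.01 and 0.12). Asns was at most 0.17 FPKM in the thymocyte libraries, too near the floor to show a fall there. It stood at 3.97 and 1.63 FPKM in control and CKO-labelled large pre-B cells and at 37.1 and 12.3 in granulocytes. The part of early granule cells in its pre-B fall was not tested. The difference between lineages passed for Slc7a5 (limma adjusted p = 0.019) and Slc3a2 (0.0392) and not for Asns (0.0568). Of 8 genes of the MYC network 2 fell and 4 rose. Myc itself, outside the rule for named genes, was lower in each resting library than in its dividing partner. Its control and CKO-labelled FPKM was 9.32 and 11.4 in cycling and 4.19 and 7.26 in quiescent thymocytes. In pre-B cells it was 33.6 and 45.4 when large and 4.81 and 16.9 when small. The repressor genes Mxd4 and Mxd1 rose by 1.60 and 0.71, Mxd1 being called in pre-B cells and not in thymocytes (1.09 and 0.33), and Mxd3, a relative found in S phase cells, fell by 2.73 on the log2 scale. Max, the shared partner of the network, was not called over both lineages (0.24, limma adjusted p = 0.0854), though it rose by 0.49 in thymocytes (0.04).

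Likeness of profile was measured by Pearson's r of log2(FPKM + 1) over the 8 lymphoid libraries, which share lineage and state and so are not independent points. The most alike members were Gart and Atic (r = 0.992) and the least alike Ppat and Pfas (r = 0.289). Paics had the highest median r with the others (0.917) and Ppat the lowest (0.671). Of 7508 ranked genes outside the members, those closest to the members' mean profile were Ap1s1, an adaptor subunit of clathrin coats (r = 0.997), Ahcy (0.995) and Aurka, a mitotic kinase (0.995).

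Between lineages at the same state, 4 members were higher in large pre-B cells than in cycling thymocytes and none lower, in a fit of all 10 libraries by population and genotype, where 26.6% of 11715 tested genes were called higher and 24.6% lower. These were Gart (difference 0.97 ± 0.18 on the log2 scale, limma adjusted p = 0.00435), Paics (0.98 ± 0.24, limma adjusted p = 0.0126), Atic (0.98 ± 0.30, limma adjusted p = 0.0295) and Shmt2 (0.57 ± 0.19, limma adjusted p = 0.0449). Pfas joins them without the CKO-labelled granulocyte library (0.88, limma adjusted p = 0.00318), with which the SE of the gene is 1.77, against 0.13 without it. The early granule and erythroid markers were also higher in large pre-B cells than in cycling thymocytes, and their part in these differences was not tested. Between the resting stages, Paics and Shmt2 were higher in small pre-B cells, by 0.75 ± 0.24 (limma adjusted p = 0.0288) and 0.73 ± 0.19 (limma adjusted p = 0.0146), where 31.0% of genes were called higher. Ppat and Impdh2 were lower there, by -0.86 ± 0.20 (limma adjusted p = 0.00788) and -0.59 ± 0.17 (limma adjusted p = 0.0211), where 30.7% were called lower. The other 6 members had limma adjusted p up to 0.7, among them Pfas at 0.581, which without the CKO-labelled granulocyte library was higher in small pre-B cells by 1.21 ± 0.13 (limma adjusted p = 0.00068).

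Ppat and Paics thus went opposite ways between the resting stages although they lie head to head, on opposite strands of chromosome 5 with exons that overlap at their starts (Ppat chr5:76913249-76951578 and Paics chr5:76951307-76967509, mm10, GENCODE). The ratio of Paics to Ppat FPKM was 3.22 and 3.02 in control and CKO-labelled cycling thymocytes and 2.29 and 2.40 in quiescent thymocytes. It was 6.09 and 6.05 in large and 7.74 and 7.54 in small pre-B cells. The lineages did not overlap, and the control and CKO-labelled values of a population lay closer together than the lineages. Granulocytes had ratios of 5.19 and 4.39. The ratio was 2.52-fold higher in the 4 pre-B libraries (geometric mean 6.81) than in the 4 thymocyte libraries (2.70). This comparison was chosen after the lineages were seen not to overlap, so it is given as a description with no test. No source used here says whether reads were counted by strand, and reads in the overlap of the exons could be split between the genes.

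**Figure D3:**
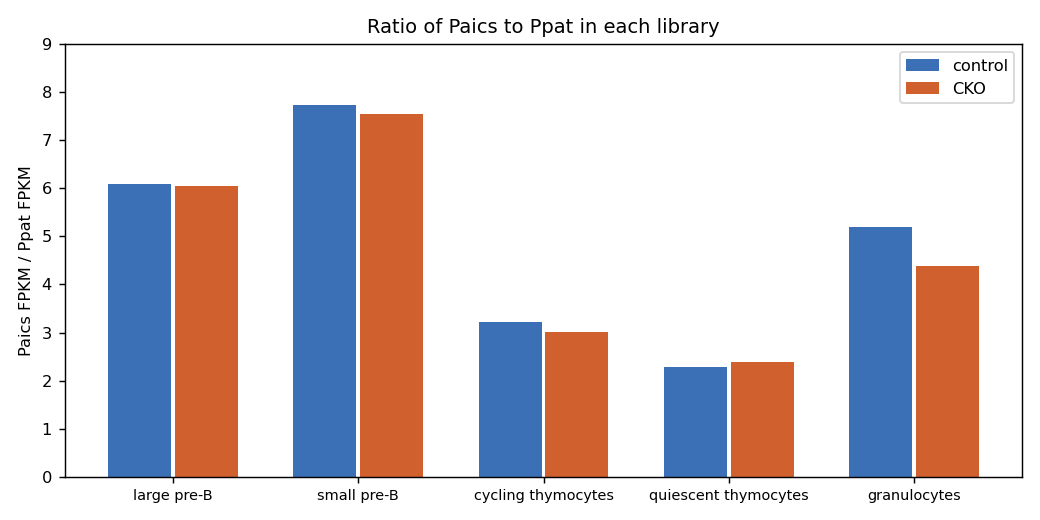
Ratio of Paics to Ppat FPKM in each of the 10 libraries, with blue bars for control and orange bars for CKO-labelled mice. The thymocyte bars lie between 2.29 and 3.22 and the pre-B bars between 6.05 and 7.74.

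In the order of population means, large pre-B cells stood first for 8 of the 10 members, and granulocytes last for 7. For Ppat the leading large pre-B cells (24.9 ± 3.87 FPKM, SD, n = 2) and cycling thymocytes (24.3 ± 1.02) did not differ beyond their spread (limma adjusted p = 0.917). For Adsl no neighbours above granulocytes differed (limma adjusted p between 0.213 and 0.456). Mthfd2 was led by cycling thymocytes (48.8 ± 4.60 FPKM, SD, n = 2), before large pre-B cells (36.9 ± 1.82, limma adjusted p = 0.344) and granulocytes (28.6 ± 4.38). Its order from first to last had no step that passed, except that the step from granulocytes down to small pre-B cells passed without the CKO-labelled granulocyte library (difference 1.13, limma adjusted p = 0.0458). Shmt2 was ordered at every step, from large pre-B cells (58.9 ± 10.3 FPKM) over cycling thymocytes (39.3 ± 4.58), small pre-B cells (20.8 ± 2.86) and quiescent thymocytes (12.2 ± 1.54) to granulocytes (5.20 ± 0.987), with limma adjusted p between 0.00158 and 0.0449.

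Granulocytes held less of most members than the lymphoid cells. Against the mean of the 4 lymphoid populations 8 members were lower, where 39.5% of tested genes were called lower, by between 0.56 on the log2 scale for Gart and 2.22 for Shmt2 (limma adjusted p between 9.18e-06 and 0.00836). Ppat measured 3.31 and 3.37 FPKM in control and CKO-labelled granulocytes, Paics 17.2 and 14.8, Impdh2 21.6 and 21.0, Mthfd1 2.53 and 1.68, Atic 6.37 and 3.36, Adsl 7.03 and 5.79 and Shmt2 5.90 and 4.51. For 7 of these 8 members both values lay below every lymphoid library of the gene, and Gart, at 14.4 and 13.0 FPKM, lay among the resting lymphocytes. The share of all genes with both granulocyte values below every lymphoid library was not counted, so this count has no background. Gart is no longer called without the CKO-labelled granulocyte library (difference -0.47, limma adjusted p = 0.0876).

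Mthfd2 was the exception. It stood at 31.7 and 25.5 FPKM in granulocytes, between the dividing and the resting lymphocytes (difference 0.16 ± 0.26 on the log2 scale, limma adjusted p = 0.574). Its ratio to Mthfd1 was 12.5 and 15.2 in granulocytes and between 1.25 and 3.53 in the lymphoid libraries, and its ratio to Shmt2 was 5.37 and 5.65 against 0.538 to 1.85. Of the mitochondrial enzymes Shmt2 was thus called lower and Mthfd2 was not, and the difference between the genes was not tested. Among other genes, 10 of 14 tested purine salvage and breakdown genes were higher in granulocytes and 0 lower, where 41.3% of tested genes were called higher, and Pnp, purine nucleoside phosphorylase, stood at 80.6 and 70.9 FPKM. Mki67 at 76.0 and 95.1 FPKM and early granule genes (Mpo, Elane and others, summed to 1518 and 630.0 FPKM) were also present in the granulocyte libraries. Their part in these levels was not tested, nor was that of the larger FPKM sum of the granulocyte libraries.

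Pfas stood at 4.10 FPKM in control granulocytes, above quiescent thymocytes and below the other lymphoid libraries, and at 934 in the CKO-labelled ones. With that library Pfas differed from the lymphoid mean by 3.06 ± 1.40 on the log2 scale (limma adjusted p = 0.0798). Without it, Pfas was lower in granulocytes by -0.59 ± 0.15 (limma adjusted p = 0.0127). No other member changed by 2-fold between the granulocyte libraries, and the 9 others summed to 109.9 and 92.9 FPKM. The gene spans chr11:68985697-69008460 on the minus strand (mm10), and an exon overlaps the microRNA gene Mir3062, 105 bases long on the same strand, which has no row in the files. Which reads gave the value cannot be seen in a table of 1 value per gene.

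Genotype was compared over paired populations. In the 4 lymphoid populations 0 members passed for CKO-labelled against control (limma), where 0.036% of tested genes were called. An unadjusted p under 0.05 was found for 2 of 10 members and 16.8% of tested genes. The lowest p-values were those of Ppat (difference 0.39 ± 0.13 on the log2 scale, limma adjusted p = 0.253), higher in 4 of 4 CKO-labelled libraries, and Paics (0.40 ± 0.14, limma adjusted p = 0.268), higher in 3 of 4. The other 8 had limma adjusted p up to 0.896. With granulocytes included 0 passed as well (limma), where 0.0512% of tested genes were called, and 1 member and 16.8% of tested genes had an unadjusted p under 0.05. The difference of the genotype effect between the pre-B and the thymocyte pairs, tested after the data were seen, passed for 0 members (limma) and for 0.00899% of tested genes. At an unadjusted p under 0.05 it held for 4 of 10 members and 14.4% of tested genes.

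Within a population each genotype is 1 library, so the values have no test. In small pre-B cells all 10 members were higher in the CKO-labelled library, by a median of 0.60 on the log2 scale, while 36.5% of 8207 genes with at least 5 FPKM were higher there and the median of all these genes was -0.10. Ppat (5.92 and 11.2 FPKM), Paics (45.8 and 84.6) and Mthfd1 (5.06 and 9.68) had the widest gaps, and none reached 2-fold on the log2(FPKM + 1) scale, past which 4.52% of genes were higher and 1.78% lower. In cycling thymocytes 8 of the 10 were lower (median -0.16), where 52.4% of genes were higher in the CKO-labelled library (median 0.012), and none reached 2-fold, past which 0.374% of genes were higher and 0.58% lower. Large pre-B cells had 8 of 10 higher (median 0.16), as were 57.3% of genes (median 0.028), with none at 2-fold, past which 0.871% of genes were higher and 0.972% lower. Quiescent thymocytes had 6 higher (median 0.30), as were 48.8% of genes, and Mthfd2 alone, with 9.59 and 20.5 FPKM, reached 2-fold (log2 ratio 1.02, but 0.80 with a pseudocount of 5), as 3.66% of genes did upward and 1.6% downward. In granulocytes 8 were lower (median -0.22), where 48.0% of genes were higher, and Pfas alone reached 2-fold, as 0.571% of genes did upward and 1.76% downward.

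**Figure D4:**
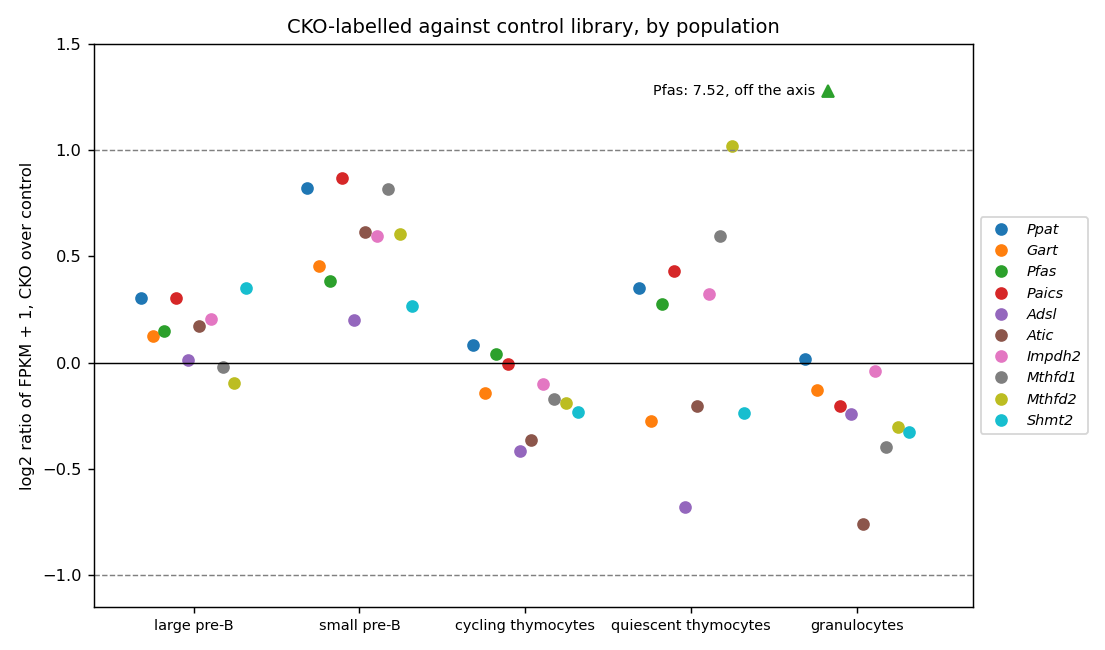
Log2 ratio of FPKM + 1 in the CKO-labelled over the control library for each member in each population, 1 point per gene, with dashed lines at 2-fold. All 10 small pre-B points lie above 0, and Pfas in granulocytes (7.52) is off the axis.

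Other values moved with the small pre-B pair. Mki67 stood at 35.0 FPKM (control) and 75.5 FPKM (CKO-labelled), and 7 markers of NK and innate T cells summed to 9.25 and 87.5 FPKM. The 6 markers of plasmacytoid dendritic cells summed to 25.8 and 226.0 FPKM, with 3 and 6 of them at 1 FPKM or more. In quiescent thymocytes the NK and innate T cell markers summed to 20.8 and 55.3 FPKM, of which Gzma alone held 20.2 and 54.5. Gzma was the only 1 of the 7 at 1 FPKM or more, and 3 were at 0 in each library. In cycling thymocytes Gzma stood at 49.2 and 64.5 FPKM. In large pre-B cells the early granule markers summed to 922 FPKM in the control and 385 in the CKO-labelled library, and the erythroid markers to 648 and 397. Whether other cell types had a part in the members' values was not tested.

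The share of the dividing level kept by resting cells was compared between genotypes. In control thymocytes the members kept between 18.4% and 84.4% (median 39.3%) of their cycling FPKM, and in CKO-labelled thymocytes between 30.7% and 76.2% (median 47.6%). In pre-B cells the medians were 31.9% in control and 39.9% in CKO-labelled cells. The share was higher in CKO-labelled cells for 7 of 10 members in thymocytes, with Gart, Adsl and Shmt2 the others, and for 9 of 10 in pre-B cells, with Shmt2 the other. These counts by lineage were not made over all genes. Over both lineages, the log2 difference of the fall between genotypes (CKO-labelled minus control) was negative for 2 of 10 members. It was negative for 6163 of 11126 tested genes. Mthfd2 kept 18.4% and 45.0% in thymocytes and 33.1% and 55.5% in pre-B cells, and Mthfd1 19.6% and 36.8% in thymocytes and 17.5% and 33.9% in pre-B cells. As a ratio of the CKO-labelled to the control share these were the widest shifts of the 10 members in both lineages.

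Tested as a difference of the fall between genotypes, 0 of the 10 members passed (limma), where 0.0449% of tested genes were called, in a fit with 1 residual degree of freedom. An unadjusted p under 0.05 was found for 5 of 10 members and 12.2% of tested genes. Mthfd2 had a difference of 0.96 ± 0.16 and Mthfd1 of 0.80 ± 0.14 on the log2 scale (limma adjusted p = 0.148 for each). The same shares of the 6 Mcm genes had medians of 17.4% in control and 43.4% in CKO-labelled thymocytes and of 33.2% and 63.9% in pre-B cells, higher in 6 of 6 in both lineages. The proliferation list had a median difference of 1.75 on the log2 scale, against 0.35 for the members and -0.03 for all tested genes.

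**Figure D5:**
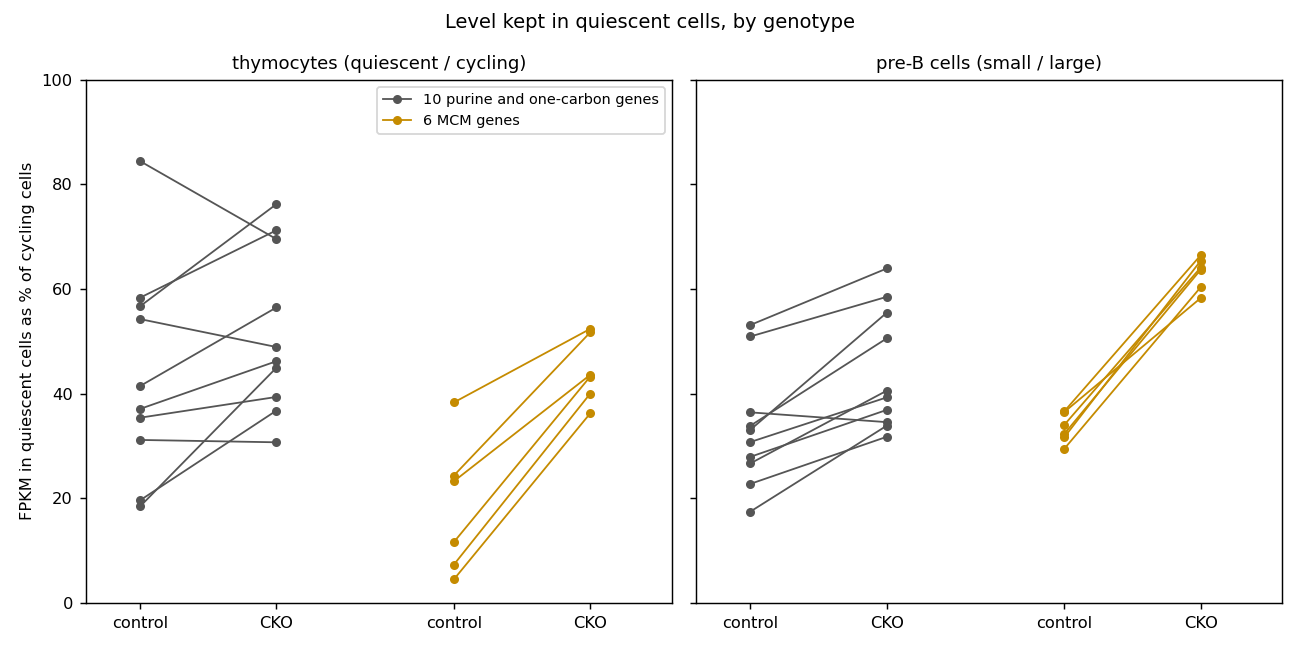
FPKM in resting cells as percent of that in dividing cells for the 10 members (grey) and the 6 Mcm genes (gold), with lines joining control to CKO-labelled values of a gene. All 6 Mcm lines rise in both lineages, and 7 member lines rise in thymocytes and 9 in pre-B cells. The same count was not made over all genes.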

How the data were processed

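Gene-level values were deposited as 1 table per library, of 23179 rows and no header of units. Per the submitters' processing notes TopHat2 (2.0.8b), Cuffdiff (2.1.1) and the build mm10 were used; the role of each tool is not stated. The deposited values were taken as FPKM made by the authors, from their range and their step sizes. Per the labels' protocols, total RNA of stained and sorted cells was made into libraries with the standard Illumina protocol. Read totals are not given in the sources used here; the weight of 1 read, estimated from low values, was 2.11 and 2.36 times that of the control cycling thymocytes in the granulocytes and 1.04 to 1.32 times in the others, from 15 to 106 genes each. Of 158 symbols listed on several rows (201 rows being exact repeats) only the row of highest average level entered, leaving 22923 symbols, and each member has 1 row.

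From these, log2(FPKM + 1) was analysed with limma 3.58.1 (trend, R 4.3.3) over genes with at least 1 FPKM in 2 fitted libraries, with Benjamini-Hochberg adjustment over all genes tested. A fold change on this scale understates that of low genes. The state fit held the 8 lymphoid libraries with a term per lineage and genotype; genotype fits had a term per population, and the population fit a term for genotype. Within a population, 2-fold was read among genes with 5 FPKM. Since each group is 1 library of pooled mice, p-values measure the spread between populations or genotypes, which serve as pairs. Fits were tested on simulated data.

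All 10 members were tested in every comparison and are given one by one for the state effect; elsewhere the text names those that passed or had the lowest p and gives the range of the rest, short of the rule to name all 10. From the other lists the rule took the 3 genes highest in the lymphoid libraries and the 2 with the largest state effect, and from the proliferation list a fixed set with Mki67, the Mcm genes, Pcna, Rrm2 and Top2a. The members and lists were chosen with earlier results of these data known. Of 159 list entries 157 were found, and 1 further pre-B marker is not reported here. Alternatives were a pseudocount of 0.1 or 5, a filter of 5 FPKM or none, no trend, libraries rescaled by median ratios, fits without the genotype or population term, no minimum within a population, and leaving out each pair of libraries. Added after the data were seen were the population fit without the CKO-labelled granulocytes, the genotype difference by lineage and the Paics to Ppat ratio. Gene positions are from GENCODE vM21 and promoters from RefSeq; Python 3.11.15, pandas 2.3.3, scipy 1.17.1 and matplotlib 3.10.9 were used.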

Additional observations from a re-analysis of the deposited data

Results flagged for a closer look

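For 4 of the 10 members the CKO-labelled library was lower than the control in both thymocyte pairs and higher in both pre-B pairs. Opposite directions in the lineages, counted whichever lineage was the higher, were seen for 40.0% of the members and for 15.6% of all 11126 genes tested. The share of all genes with the members' orientation alone was not counted. The log2(FPKM + 1) differences in cycling and quiescent thymocytes and in large and small pre-B cells were -0.15, -0.28, 0.13 and 0.45 for Gart, and -0.42, -0.68, 0.01 and 0.20 for Adsl. They were -0.36, -0.20, 0.17 and 0.61 for Atic and -0.23, -0.24, 0.35 and 0.27 for Shmt2. The difference between lineages, tested with limma after the data were seen, was 0.50 for Gart (limma adjusted p = 0.295), 0.66 for Adsl (0.192), 0.68 for Atic (0.227) and 0.55 for Shmt2 (0.188). None passed, and 4 of the 10 members had an unadjusted p under 0.05, as did 14.4% of all tested genes.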

How the results depend on the processing

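Over the 3 state comparisons the members gave 330 values under alternatives, of which all 330 stayed negative; 298 kept their side of the threshold, 31 lost it and 1 gained it. Without the control pair the members past the threshold went from 9 to 0 in thymocytes and from 10 to 0 in pre-B cells. With a pseudocount of 5, 1 member (Impdh2) passed for the lineage difference, and 0 reached 2-fold in quiescent thymocytes (Mthfd2 at 0.80). Some log2 differences changed sign. For the lineage difference they were Mthfd2 (-0.055 without the control thymocyte pair), Mthfd1 (0.18 without the CKO-labelled thymocyte pair and 0.22 without the control pre-B pair) and Paics (0.052 without the control pre-B pair). Adsl turned to 0.005 for the genotype difference of the fall when rescaled. For genotype over 4 populations Shmt2 turned to -0.068 without large pre-B cells, and Gart, Atic and Shmt2 to -0.10, -0.13 and -0.040 without small pre-B cells. Over 5 populations Shmt2 turned to 0.014 without cycling thymocytes, 0.015 without quiescent thymocytes and 0.037 without granulocytes. Gart turned to -0.025 without large and -0.11 without small pre-B cells, and Atic to 0.055 without granulocytes. Pfas turned to -0.59 in granulocytes without the CKO-labelled library. The cause was not tested, other than by the removal of samples that defines these alternatives. No paired analysis was possible by replicate number, because each group holds 1 library and that number is only a name; the fits pair libraries by population, or by lineage and genotype, instead.

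The members' FPKM carry no read counts, so counting error is unknown, and each library is 1 pool of mice. Whether the libraries of a genotype came from the same mice was not known here.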
